A study of Homo sapiens with 8 samples.

Results

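The Krüppel-like factor (KLF) genes examined here are KLF2, KLF3, KLF4, KLF5, KLF6, KLF9, KLF10, KLF11, KLF13 and KLF16. These 10 genes were listed by name, out of 19821 protein-coding genes annotated on the autosomes, X and Y. For each gene, every deposited G-quadruplex (G4) interval in the gene body or in the 1 kb upstream of any annotated transcription start site (TSS) was collected. The intervals come from G4 ChIP-seq, in which chromatin fragments are precipitated with BG4, an antibody that binds folded G4s, and are sequenced beside input chromatin. K562 is a chronic myelogenous leukemia line with erythroid features, and HepG2 is a hepatocellular carcinoma line. Each is an established line, and the labels name no treatment, genotype change or time for either of them. The labels list 3 G4 ChIP libraries, given as technical replicates, and 1 input per line. The study describes the merged replicates as technical repeats of 3 independent experiments per line. It adds that earlier K562 data were taken into account, without saying whether the K562 lists include them. The cell line and the set of experiments cannot be told apart here.

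The authors deposited 2 lists per line. The high-confidence list holds stretches called in at least 5 of 8 replicates in K562 (9205 intervals) or in at least 6 of 9 in HepG2 (8805). The lower-confidence list holds those called in at least 2 replicates, with 19249 intervals in K562 and 28387 in HepG2. An interval has a position and a width and nothing else, so neither sequencing depth nor a spread between replicates is known, and no difference between the lines could be tested. Counts over the KLF genes are given beside the same count over all protein-coding genes. The chromatin is from bulk cells, so an interval does not tell in what share of cells a G4 was folded.

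KLF proteins are transcription factors whose zinc fingers recognise GC boxes and CACCC boxes in promoters. The family is usually divided by cofactor. KLF3 belongs with the members that bind the corepressor CtBP. KLF2, KLF4, KLF5 and KLF6 act mostly as activators through acetyltransferases. KLF9, KLF10, KLF11, KLF13 and KLF16 can recruit the corepressor Sin3A. KLF1, which is not among the 10, is the erythroid factor that drives globin genes and gives the comparison of an erythroid with a liver line its interest. A G4 is a stack of guanine tetrads that can form where 4 runs of G lie close together, as they often do in GC-rich promoters.

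The sequences below are the G4 motifs (4 G runs, each of 3 or more G, separated by 1 to 7 bases) on which the comparisons of the lines turn. The motifs were read from the hg19 reference, 5′ to 3′ on the strand that carries the G runs, and the capitals mark the G runs. No sequence is shown for KLF10, and KLF5 and KLF9 had no motif in any interval. The set that follows lies in KLF promoters that were high-confidence in both lines, and all 5 were inside the high-confidence intervals of K562 and of HepG2.
KLF3, −237 to −217 (chr4:38665583-38665603, + strand, the gene strand): GGGtgactGGGcGGGGcGGGG
KLF3, −204 to −179 (chr4:38665616-38665641, + strand, the gene strand): GGGaggcGGGGGtggcGGGGGaaGGG
KLF3, −55 to −37 (chr4:38665765-38665783, − strand, opposite to the gene): GGGacccGGGGtGGGaGGG
KLF6, −148 to −126 (chr10:3827527-3827549, − strand, the gene strand): GGGccGGGagccacGGGattGGG
KLF16, −358 to −335 (chr19:1863913-1863936, − strand, the gene strand): GGGGcgcgccGGGaGGGGGcGGGG

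The motifs of the next set were inside a K562 high-confidence interval and outside the HepG2 high-confidence list. At KLF3, at KLF13 and at +6154 to +6175 bp of KLF16 they lie on the flank of an interval that both lines had. The others lie in gene-body intervals of KLF11 and KLF16 that overlapped no HepG2 interval of either list.
KLF3, −438 to −423 (chr4:38665382-38665397, + strand, the gene strand): GGGccGGGcGGGaGGG
KLF3, −403 to −381 (chr4:38665417-38665439, + strand, the gene strand): GGGGaggaGGGcgcGGGGaGGGG
KLF3, −376 to −355 (chr4:38665444-38665465, + strand, the gene strand): GGGcGGGGacgcGGGcGGGGGG
KLF13, −35 to −16 (chr15:31619003-31619022, − strand, opposite to the gene): GGGGGtGGGcGGGGccGGGG
KLF11, +695 to +721 (chr2:10184372-10184398, + strand, the gene strand): GGGGccGGGGcaacgacGGGaggcGGG
KLF16, +6154 to +6175 (chr19:1857403-1857424, + strand, opposite to the gene): GGGtGGGGacaacgcGGGaGGG
KLF16, +8116 to +8138 (chr19:1855440-1855462, + strand, opposite to the gene): GGGaaGGGGcGGGGcccggcGGG
KLF16, +8145 to +8163 (chr19:1855415-1855433, + strand, opposite to the gene): GGGaGGGGaGGGGGcGGGG
KLF16, +10143 to +10168 (chr19:1853410-1853435, + strand, opposite to the gene): GGGGaggccaGGGaagcaGGGccGGG

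The last set shows motifs of KLF4, found in the K562 lower-confidence list alone, and motifs on either side of the TSS of KLF2, which lay in no interval of any list.
KLF4, −81 to −63 (chr9:110252113-110252131, − strand, the gene strand): GGGaGGGGcGGGGcatGGG
KLF4, −181 to −157 (chr9:110252207-110252231, + strand, opposite to the gene): GGGGGcGGGGGaGGGGaaggaGGGG
KLF4, −202 to −185 (chr9:110252235-110252252, + strand, opposite to the gene): GGGcGGGGctGGGccGGG
KLF2, −258 to −237 (chr19:16435379-16435400, + strand, the gene strand): GGGGagacGGGcGGGGGcGGGG
KLF2, +15 to +37 (chr19:16435652-16435674, − strand, opposite to the gene): GGGctggtcGGGGcgcGGGcGGG

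KLF genes held high-confidence G4 intervals in both lines, and each of the genes high-confidence in HepG2 was also high-confidence in K562. In K562, 7 of the 10 genes had one (KLF3, KLF5, KLF6, KLF10, KLF11, KLF13 and KLF16), against 37.7% of all protein-coding genes (95% Wilson interval 37 to 38.4, which covers the counting of genes only). In HepG2, 5 of the 10 did (KLF3, KLF6, KLF10, KLF13 and KLF16), against 34.3% of all genes. The 5 genes high-confidence in HepG2 were the 5 that were high-confidence in both lines, a state found at 26.1% of all genes. KLF5 and KLF11 were high-confidence in K562 and not in HepG2, as were 11.6% of all genes. No KLF gene of the 10 was high-confidence in HepG2 without being so in K562, a state seen at 8.16% of all genes. The 10 were chosen with earlier results of these data known. Of the 8 other KLF genes, described below, 2 were high-confidence in K562 and 2 in HepG2.

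The lower-confidence lists added 2 genes in K562 and 1 in HepG2. In K562 they held 9 of the 10 (53.8% of all genes), with KLF4 and KLF9 added, and in HepG2 6 of the 10 (57.4% of all genes), with KLF5 added. KLF11 was high-confidence in K562 with no HepG2 interval of either list, as were 2.92% of all genes. KLF4, KLF9 and KLF11 had a K562 interval of some confidence and none in HepG2, as did 7.13% of all genes. KLF2 had no interval in any list, as did 35.4% of all genes. The windows were short beside those of other genes, with a median of 12584.5 bp against 27993 bp.

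The same high-confidence counts were found at the promoters. Within 1 kb upstream of a TSS, 7 of the 10 genes had a K562 high-confidence interval (34.7% of all genes) and 5 of the 10 a HepG2 one (29.6%), and they were the genes named above for the whole window. The lower-confidence lists had 8 of the 10 there in K562 (48.6%), with KLF4 added and KLF9 not, and 6 of the 10 in HepG2 (49.0%). The K562 intervals before the canonical TSS were centred between −362 and −38 bp, with a median of −200 bp. Over the 6230 genes with such an interval in K562 the median was −89 bp, with quartiles at −143.5 and −50.5 bp. In HepG2 the 5 KLF intervals had a median of −211 bp, against −109.5 bp over 5267 genes. The map of intervals around the TSSs shows this placement gene by gene.

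**Figure D1:**
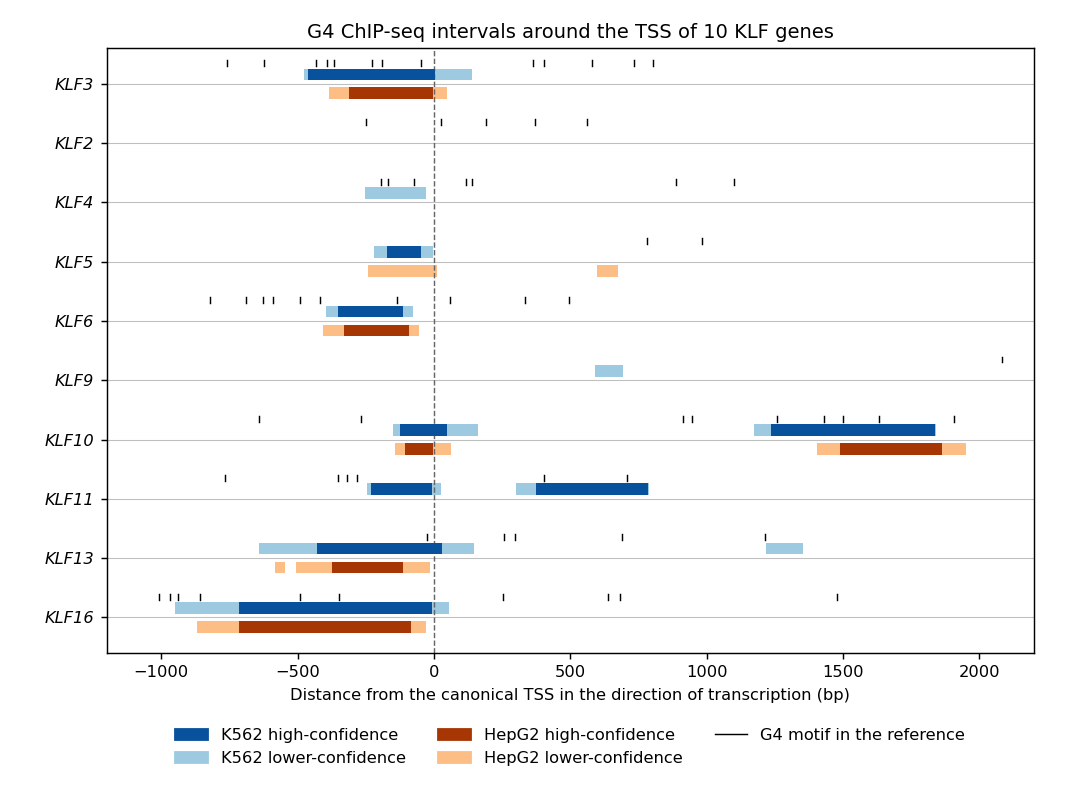
Each row is a KLF gene, and the horizontal axis is the distance in bp from its canonical TSS in the direction of transcription. Blue bars above each line are K562 intervals, orange bars below it are HepG2 intervals, dark bars are high-confidence and pale bars lower-confidence, and black ticks are G4 motifs in the reference. KLF3, KLF6, KLF10, KLF13 and KLF16 have dark bars of both lines near the TSS, KLF11 has bars of K562 alone, and KLF2 has motifs and no bar.

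KLF3 is a CtBP-binding repressor that acts in erythroid and fat cells, and its promoter held the most G4 motifs of any interval at the 10 genes. The K562 high-confidence interval, chr4:38665357-38665823, was 467 bp wide and centred at −230 bp. It had 81.8% G+C and held 6 motifs, 5 of them on the gene strand. The HepG2 high-confidence interval, chr4:38665509-38665814, was 306 bp wide, lay inside the K562 interval and held 3 of the 6 motifs. The 3 motifs left outside it lie at −438 to −355 bp, on the upstream flank. The HepG2 lower-confidence interval held the one at −376 to −355 bp whole and the one at −403 to −381 bp in part. The same interval touches KLF3-AS1, an antisense long noncoding RNA gene, so it cannot be given to KLF3 alone. Inside intron 1, a locus at +3138 bp was lower-confidence in both lines, and one at +9569 bp was lower-confidence in HepG2 alone.

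Among the mostly activating members, KLF6 and KLF5 had high-confidence intervals and KLF4 and KLF2 did not. KLF6, an early-response gene expressed in many tissues, had nearly equal intervals in the lines. They were 240 bp wide in K562 (chr10:3827514-3827753, centred at −232.5 bp) and 235 bp wide in HepG2 (chr10:3827495-3827729, centred at −211 bp). The 216 bp they shared held the KLF6 motif printed above. An unnamed long noncoding RNA gene lies at the same place.

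KLF5, a factor of dividing epithelial cells, differed in confidence rather than in place. The K562 high-confidence interval, chr13:73632972-73633095, was 124 bp wide and centred at −109.5 bp. In HepG2 the same promoter was in the lower-confidence list only, as chr13:73632903-73633153, which is 251 bp wide and contains the K562 interval. The K562 interval had 76.6% G+C but no G4 motif. HepG2 had a further lower-confidence interval of 77 bp in intron 1, at +637 bp.

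KLF4, one of the reprogramming factors, had a single interval in the 4 lists. It was a K562 lower-confidence interval of 221 bp at chr9:110252081-110252301, centred at −141 bp, and held the 3 motifs shown above. KLF2, which is best known from endothelial cells and lymphocytes, had none. Its promoter, taken from 250 bases before to 50 bases after the canonical TSS, had 80.7% G+C, and its window held 6 G4 motifs, 5 of them within 1 kb of the TSS. The nearest interval to the KLF2 TSS was a HepG2 lower-confidence one 52008 bp away, and the nearest K562 high-confidence interval was 66056 bp away. Of the 6708 protein-coding genes with a G4 motif in these 300 bases, 42.5% had no interval of any list there. A promoter with a motif and without an interval in these bases was thus common. Promoters of similar G+C were not counted.

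The Sin3A-binding members ranged from KLF9, with 1 interval in the 4 lists, to KLF16, with the most. KLF9, a factor induced by glucocorticoid and thyroid hormone, had a K562 lower-confidence interval of 104 bp in its 5′ UTR (chr9:73028881-73028984, centred at +640.5 bp). It had 54.8% G+C and no G4 motif. The 300-base promoter of KLF9 had 32.7% G+C and 1 CpG, against a median of 75.2% and 36 CpGs over the 10 genes and 63.7% and 23 over all genes.

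KLF10, an early gene of the TGF-β response on chromosome 8, had 2 high-confidence loci in each line. The promoter locus was 171 bp wide in K562 and 103 bp in HepG2, centred at −38 and −55 bp, and held no G4 motif in either line. An unnamed long noncoding RNA gene is touched by these promoter intervals. The intron 1 locus was wider, 604 bp in K562 and 374 bp in HepG2, centred at +1535.5 and +1675.5 bp. It held 4 motifs in K562 and 2 in HepG2. The HepG2 lower-confidence interval there also held 4, and the one at +1893 to +1917 bp lay in no K562 interval of either list. The K562 centre of this intronic locus lies 185.5 bp downstream of another annotated TSS, so the locus also lies by a start site. In all, 8.53% of protein-coding genes had 2 or more K562 high-confidence intervals, and KLF10, KLF11, KLF13 and KLF16 were the KLF genes that did. KLF10 and KLF16 had 2 or more in HepG2, as did 7.75% of all genes.

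KLF11, a regulator of insulin and lipid genes, had intervals in K562 alone. Both of its K562 high-confidence intervals lacked a HepG2 interval of either list. The promoter interval, chr2:10183445-10183670, was 226 bp wide, centred at −119.5 bp, with 79.2% G+C and no G4 motif. The second, chr2:10184053-10184459, was 407 bp wide with 2 motifs on the gene strand. Its centre lies in intron 1 of the canonical transcript at +579 bp, and at −46 bp from the start of another protein-coding transcript. The nearest HepG2 high-confidence interval was 76693 bp from the canonical TSS.

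KLF13, a factor of lymphocytes and heart, shared its promoter between the lines. The K562 interval there, chr15:31618608-31619068, was 461 bp wide and centred at −200 bp, and the HepG2 interval, chr15:31618664-31618925, was 262 bp wide and lay inside it. The motif at −35 to −16 bp was inside the K562 interval and past the end of the HepG2 high-confidence interval, although a HepG2 lower-confidence interval reached part of it. A second K562 high-confidence interval of 98 bp lay far inside the gene, centred at +39167.5 bp in intron 1 and at −151.5 bp from a different annotated TSS, with 60.2% G+C and no motif. HepG2 had no interval there. In the lower-confidence lists, HepG2 alone had a locus at +65615.5 bp, and K562 alone had loci at +1285 and +70561 bp. The loci at +65615.5 and +70561 bp lie past the end of the canonical transcript at +51064 bp. The KLF13 window is 109831 bp long, the longest of the 10.

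KLF16, a factor of metabolic and endocrine genes, had the most intervals of the 10. It had 4 high-confidence intervals in K562, a number that 0.676% of protein-coding genes reached or passed, and 2 in HepG2. The promoter interval was 709 bp wide in K562 (chr19:1863586-1864294, centred at −362 bp, 82.4% G+C) and ranked 35 by width among the 9205 K562 high-confidence intervals. In HepG2 it was 630 bp wide (chr19:1863664-1864293) and ranked 38 among the 8776 outside the mitochondrial chromosome. Each held the promoter motif printed above. The other intervals lay in the gene body. One at +6120.5 bp in intron 1 was 226 bp wide in K562 and 72 bp in HepG2, and the HepG2 interval ended before the motif at +6154 to +6175 bp in transcript order. The HepG2 lower-confidence interval there held that motif whole. The intervals at +8106.5 bp in intron 1 (306 bp) and at +10082 bp in the 3′ UTR (175 bp) were high-confidence in K562 and absent from both HepG2 lists. The one in the 3′ UTR also touches an unnamed long noncoding RNA gene. In the lower-confidence lists, HepG2 alone had a locus at +3307.5 bp in intron 1, which touches a different unnamed long noncoding RNA gene. K562 alone had lower-confidence loci at +6502 and +6765.5 bp. The 4 gene-body motifs in K562 high-confidence intervals all had their G runs on the strand opposite to the gene. The interval at +8106.5 bp held 2 of these. The promoter motif printed above was on the gene strand. In each line the lower-confidence promoter interval also held 1 motif of the opposite strand. Of the 37 motifs of the KLF16 window, 18 were on the gene strand, and a strand difference between promoter and gene body was not tested.

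**Figure D2:**
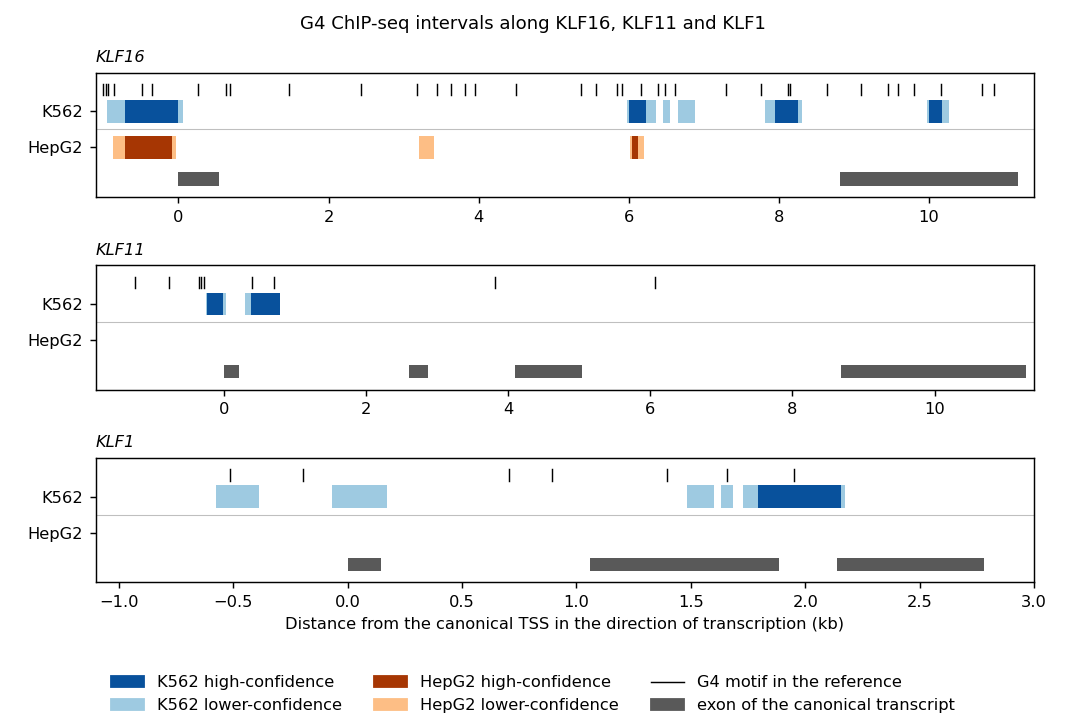
Each panel shows a whole gene window, with the distance from the canonical TSS in kb on the horizontal axis, K562 intervals in blue above the line and HepG2 intervals in orange below it. Dark bars are high-confidence, pale bars lower-confidence, black ticks G4 motifs and grey boxes exons of the canonical transcript. KLF16 has 4 dark K562 bars and 2 dark HepG2 bars, and KLF11 and KLF1 have bars in K562 alone.

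Intervals of the 4 lists that touch each other were joined into loci to compare the lines place by place. The 10 genes held 24 loci, and 28352 loci lay in the windows of all protein-coding genes. High confidence in both lines was found at 7 KLF loci (29.2%, against 15.1% of all loci). High confidence in K562 with no HepG2 interval was found at 5 loci (20.8%, against 5.51%), which were the KLF11 pair, the distal KLF13 locus, and the KLF16 loci near +8 kb and +10 kb of the TSS. No KLF locus was high-confidence in HepG2 with no K562 interval, against 6.45% of all loci. In the lower-confidence lists, 6 KLF loci were found in K562 alone (25.0%, against 18.2%) and 4 in HepG2 alone (16.7%, against 38.8%). Several loci lie in the same gene and are not independent of each other.

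Where both lines had an overlapping high-confidence interval, the K562 interval was the wider in each of the 7 pairs, against 62.6% of 4824 pairs genome-wide. The median width was 461 bp in K562 and 262 bp in HepG2, and the median ratio was 1.61, against 1.13 over all pairs. The widths were closest at KLF6 (240 against 235 bp). They differed most in bp at the KLF10 intron (604 against 374 bp) and most as a ratio at the KLF16 intron (226 against 72 bp). The HepG2 interval lay wholly inside the K562 interval in 5 of the 7 pairs, and at KLF6 and the KLF10 intron it reached past it. The lists were made from 8 replicates with a minimum of 5 in K562 and from 9 with a minimum of 6 in HepG2, and the part of this difference in the widths was not tested. KLF10 and KLF16 each gave a promoter pair and an intron pair. In the lower-confidence lists HepG2 was the wider at KLF6 (349 against 319 bp), and K562 at the other loci of the 7 pairs. HepG2 was also the wider there at the KLF5 promoter (251 against 214 bp) and at +3138 bp of KLF3 (213 against 74 bp).

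**Figure D3:**
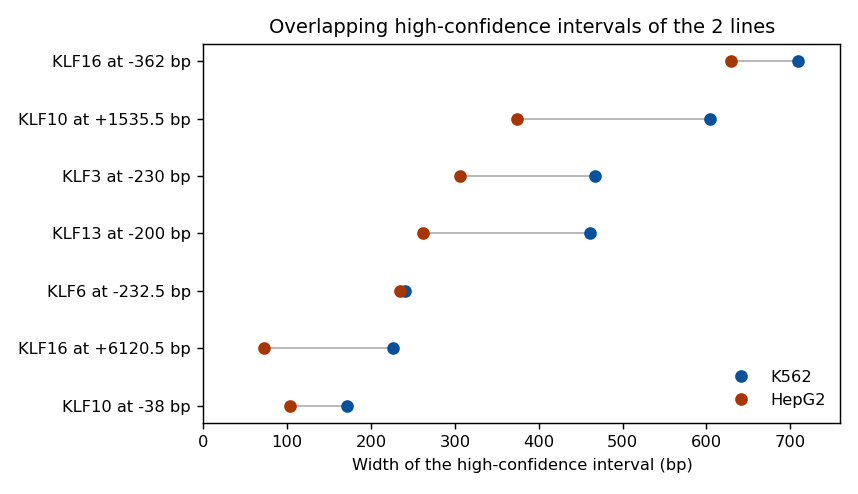
The 7 overlapping pairs of high-confidence intervals, named by gene and by the centre of the K562 interval from the canonical TSS, are plotted by width in bp. Blue points are K562 and orange points HepG2. The blue point lies to the right in every pair, by least at KLF6 (240 against 235 bp).

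High-confidence intervals at the KLF genes had higher medians of width and G+C than the whole lists. The 13 K562 intervals had a median width of 240 bp and 76.6% G+C, against 195 bp and 70.3% over the K562 list. The 7 HepG2 intervals had medians of 262 bp and 74.8%, against 169 bp and 65.2%. A G4 motif was present in 9 of the 13 (69.2%, against 32.6% of the list) and in 4 of the 7 (57.1%, against 20.6%). Wider intervals can hold more motifs, and the part of width in these shares was not tested. All 7 HepG2 intervals overlapped a K562 high-confidence interval (53.9% over the HepG2 list), and 7 of the 13 K562 intervals overlapped a HepG2 one (53.8%, against 51.1%).

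The 10 windows held 161 G4 motifs in the reference, 0.625 per kb against 0.165 per kb over all protein-coding windows. K562 high-confidence intervals touched 20 of them (12.4%, against 2.29% of 217013 motifs), and HepG2 ones touched 8 (4.97%, against 1.29%). The intervals themselves covered 4214 bp of the windows in K562 and 1982 bp in HepG2, so that each kb of interval held 4.75 and 4.04 motifs. Both the motif count and the length covered were higher in K562, and the part of length in the motif count was not tested. Of the 59 motifs within 1 kb of a canonical TSS, 12 were touched in K562 (20.3%, against 10.3% over all windows) and 6 in HepG2 (10.2%, against 6.02%). Of the 102 elsewhere, 8 were touched in K562 (7.84%, against 0.578%) and 2 in HepG2 (1.96%, against 0.284%). The 8 were 4 at KLF10 and 4 at KLF16, and the 2 in HepG2 were at KLF10. Those of KLF10 lie in the intron 1 locus by another annotated TSS. KLF13 had the most motifs, 59, of which 1 was in a K562 high-confidence interval and none in a HepG2 one. Some of the 59 lie past the end of its canonical transcript, in a part of the window that other transcripts add. KLF16 had 37, with 6 and 2 touched, and KLF3 had 14, with 6 and 3 touched. By strand, 90 of the 161 motifs were on the gene strand, as were 12 of the 20 touched in K562 and 6 of the 8 in HepG2.

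**Figure D4:**
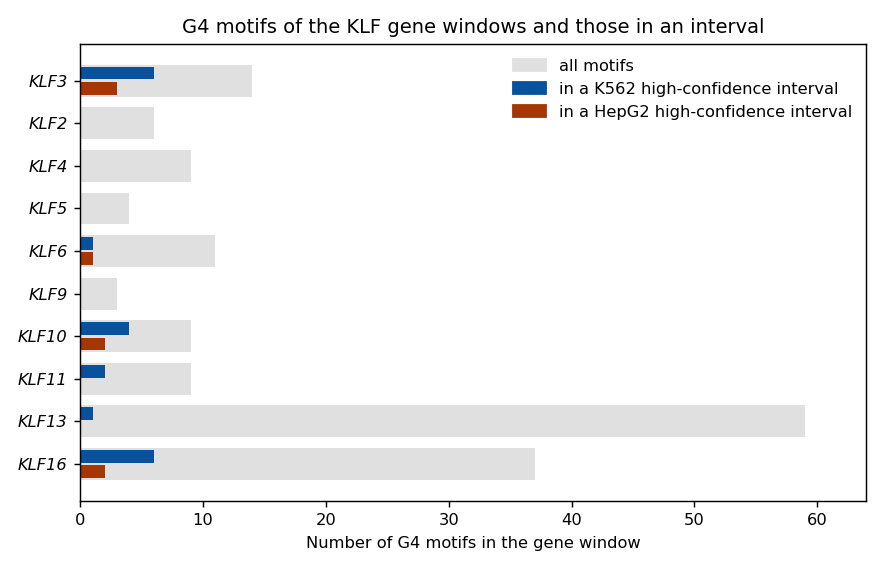
Grey bars give the number of G4 motifs in each KLF gene window, blue bars those in a K562 high-confidence interval and orange bars those in a HepG2 high-confidence interval. KLF13 has the longest grey bar (59) and a blue bar of 1, and KLF3 and KLF16 have the longest blue bars (6 each).

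The promoters were also searched for the words that KLF and SP factors bind, on both strands of the 300 bases around the TSS. The words can overlap each other and a G4 motif. CCNCNCCC was present in 9 of the 10 promoters (69.6% of all genes), with a median of 6.5 matches against 1. GGGCGG was present in 9 of the 10 (61.2%), with a median of 3.5 against 1. CACCC was present in 4 of the 10 (63.7%), those of KLF3, KLF5, KLF10 and KLF13. KLF3 had 6 matches to CACCC. KLF9 lacked all of the words, in its AT-rich promoter. A G4 motif was present in 5 of the 10 (33.8%), those of KLF2, KLF3, KLF4, KLF6 and KLF13, so KLF5, KLF10, KLF11 and KLF16 had their promoter intervals at 300-base promoters without one. The KLF16 promoter intervals did hold a motif upstream of the 300 bases, at −358 to −335 bp. High-confidence intervals reached these 300 bases in 7 of the 10 genes in K562 (29.9% of all genes) and in 5 of the 10 in HepG2 (24.9%). Of the 5 promoters with a motif, those of KLF3, KLF6 and KLF13 had a high-confidence interval in K562 (37.7% of all promoters with a motif) and in HepG2 (26.2%). A match is a description of the sequence, and no binding was measured here.

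KLF1 itself had G4 intervals in K562 and none in HepG2. Its K562 high-confidence interval, chr19:12995859-12996221, was 363 bp wide and centred at +1975 bp in intron 2, and it held this motif of the gene strand, shown because it is the KLF1 sequence under the high-confidence call.
KLF1, +1940 to +1965 (chr19:12996050-12996075, − strand, the gene strand): GGGGaagaaGGGttgcagaGGGcGGG

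The K562 lower-confidence list had 5 intervals in the KLF1 window of 3780 bp. They included one of 238 bp over the TSS, centred at +51.5 bp, and one of 188 bp centred at −481.5 bp. The nearest HepG2 high-confidence interval was 3624 bp from the KLF1 TSS, outside the window. KLF1 resembled KLF11 in having intervals of K562 alone, but its high-confidence interval lay in the gene body and not at the promoter.

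The other KLF genes in the annotation held fewer intervals. Both gene lists were chosen with earlier results of these data known, and the contrast between them was not tested. They are KLF1, KLF7, KLF8, KLF12, KLF14, KLF15, KLF17 and KLF18. Of these 8, 2 had a high-confidence interval in K562, KLF1 and KLF15, against 37.7% of all genes. In HepG2, 2 had one, KLF7 and KLF15, against 34.3%. KLF7, a factor of neurons and fat cells, showed a pattern that none of the 10 had, with a HepG2 high-confidence interval of 221 bp centred at −304 bp (chr2:208030866-208031086) and no K562 interval, as found at 3.18% of all genes. That interval also touches MYOSLID, a long noncoding RNA gene. KLF15, a metabolic regulator of liver and muscle, had a 130 bp interval in intron 1 in each line and a promoter interval that was high-confidence in K562 and lower-confidence in HepG2. KLF12 had a HepG2 lower-confidence interval of 114 bp at its TSS, and KLF8, KLF14, KLF17 and KLF18 had none in any list.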

How the data were processed

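Per the study's methods and the submitters' processing notes, reads were trimmed (cutadapt 1.16) and mapped to hg19 (BWA 0.7.15), duplicates were dropped (Picard 2.14.0, samtools 1.6), each replicate had its peaks called by MACS2 2.1.1 at a q-value below 0.05, and the replicates were joined by bedtools 2.26.0. The files the authors deposited hold interval positions in bp, and no count, signal or q-value per interval, so depth is unknown. The merged replicates, 8 in K562 and 9 in HepG2, outnumber the libraries in the labels. For K562 the study also took earlier G4 ChIP-seq data into account, and whether these are among the 8 is not stated.

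Positions were compared on hg19 with GENCODE release 44 lifted to that build, whereas the study names an earlier release. Every interval lay within the chromosome lengths of the reference. A gene window was the gene body plus 1 kb upstream of each TSS, an overlap was at least 1 bp, and the canonical TSS was that of the MANE Select or else the Ensembl canonical transcript. Background counts used genes with a protein-coding transcript. Mitochondrial intervals were left out of comparisons with a whole list. The members and the other gene lists were chosen with earlier results of these data known, and every member is named. No test was run. The printed motif sequences are a selection, and others are not reported here. Overlap and motif functions were tested on simulated data, where 2000 of 2000 queries of each equalled a direct search. Alternatives were other overlap, TSS, width and motif definitions and the lower-confidence lists. The software was Python 3.11.15 with numpy 2.4.6, pysam 0.24.0, scipy 1.17.1 and matplotlib 3.10.9, and samtools 1.23.1.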

Additional observations from a re-analysis of the deposited data

How the results depend on the processing

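Of 42 alternative values, 39 stayed within 1.5 times the reported count and 27 equalled it. The lower-confidence lists moved the other 3: intervals in the KLF windows went from 13 to 20 in K562 and from 7 to 14 in HepG2, and G4 motifs touched in HepG2 went from 8 to 16. The number of KLF genes with a high-confidence interval stayed at 7 in K562 and 5 in HepG2 with the interval's centre in place of any overlap, without intervals under 50 bp, and with protein-coding transcripts alone. No KLF high-confidence interval was under 98 bp in K562 or 72 bp in HepG2, so the width setting could not change this number. The same 7 and 5 held for promoters of 500 or 2000 bp. Intervals with a motif went from 9 of 13 to 12 in K562 and from 4 of 7 to 6 in HepG2 when runs of 2 G were allowed. Those shares were close to the shares over the whole lists, at 92.3% against 89.6% in K562 and 85.7% against 79.6% in HepG2. No paired analysis was possible because the replicates of each line were merged before deposit, and for the same reason no replicate could be left out. Depth limits every absence here: an interval missing from a list may lie under its threshold.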

Other observations

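Genes for proteins that KLF factors work with were counted the same way, from a list of 10: the corepressors CTBP1, CTBP2, SIN3A and SIN3B, the deacetylases HDAC1 and HDAC2, the acetyltransferases EP300, CREBBP and KAT2B, and the ubiquitin ligase WWP1. High-confidence intervals lay in the windows of 8 of them in K562 (37.7% of all protein-coding genes) and of 4 in HepG2 (34.3%), and the 4, SIN3A, HDAC1, EP300 and WWP1, were high-confidence in both lines. Their windows ran from 39889 bp at CTBP1 to 177854 bp at CTBP2, against a median of 27993 bp over all genes. The part of window length in these counts was not tested. Intervals of CTBP1, SIN3A, HDAC2, EP300 and WWP1 also touch noncoding RNA genes. SIN3A had 3 high-confidence intervals in each line, covering 1563 bp in K562 and 1534 bp in HepG2. CTBP1 had 4 in K562, of 349 bp in all, and no high-confidence one in HepG2. The 4 included fragments of 16 and 23 bp, which lay with a 205 bp interval inside a K562 lower-confidence interval of 647 bp. In HepG2 the canonical promoter of CTBP1 lacked an interval, and 4 lower-confidence intervals lay 16 to 20 kb into the gene. KAT2B also had 4 in K562, of 312 bp in all, and no interval in HepG2. A 21 bp fragment of KAT2B lay with a 63 bp interval inside a K562 lower-confidence interval of 263 bp. CTBP2 was lower-confidence in both lines, and SIN3B had no interval in any list.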
